A study of Homo sapiens with 24 samples.

Results

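The response of SW620 colon cancer cells to the cytokine TGFB1 was examined in 8 of the 24 RNA-seq libraries of the series, those of SW620 cells labelled as given TGFB1 (4 libraries) or the solvent DMSO (4 libraries). SW620 is an established line from a lymph node metastasis of a colorectal cancer, and SW480, used here only for comparison, is a line from the primary tumour of the same case. All cells had been infected with a lentivirus and selected with 5 µg/ml puromycin, so the controls carry a vector too. SW620-Tet2CD cells expressed the catalytic domain of TET2, an enzyme that oxidises methylated cytosine in DNA, and SW620-vector cells carried the empty vector. The 4 groups were Tet2CD TGFB1, Tet2CD DMSO, vector TGFB1 and vector DMSO, with 2 libraries each, and TGFB1 was given at 4 ng/ml for 24 h. Ligand, dose and duration are given here as labelled, although the study's own text gives all of them otherwise. The sample titles name either TGFB1 or DMSO, and they do not tell whether TGFB1 cells also received the solvent. Separate cultures for the 2 libraries of a group are not stated, nor is it stated whether an infected line was a pool or a clone. The p-values therefore measure the spread among these libraries, and that spread may be technical.

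TGF-beta ligands bind a pair of receptor kinases, TGFBR2 and TGFBR1, which phosphorylate SMAD2 and SMAD3. These join SMAD4, enter the nucleus and act with other transcription factors on target genes, among them inhibitors that switch the pathway off again. In epithelial cells the pathway is known for growth arrest and for epithelial-mesenchymal transition (EMT), and colorectal cancers often lose one of its components.

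Total counts in the 8 libraries ran from 2817697 to 4410567 with TGFB1 and from 3230653 to 4075963 with DMSO, which leaves genes at a few counts imprecise. Ribosomal protein genes took 8.48% to 9.36% of counts with TGFB1 and 8.68% to 9.69% with DMSO, and the count-weighted GC content was 50.17% to 51.27% with TGFB1 and 50.48% to 50.96% with DMSO. TET2, at chr4:105145875-105279816 of GRCh38, was read at 1242 and 1193 CPM (counts scaled to library size) in Tet2CD TGFB1 cells and 1307 and 1313 CPM in Tet2CD DMSO cells, against 18.1 and 25.2 CPM in vector TGFB1 cells and 10.9 and 11.8 CPM in vector DMSO cells. The construct labels were therefore borne out in all 8 libraries. The first principal component, with 46.5% of the variance, separated the 4 TGFB1 libraries (26 to 34.3) from the 4 DMSO libraries (-33 to -28.9), and the second separated the constructs. The pair of Tet2CD TGFB1 libraries differed from each other more than any other pair, with an SD of log2 differences of 0.513 against 0.377 to 0.438 in the other 3 groups, and values that rest on one of them are given below with both.

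Of 10 markers of colorectal cancer cells, EPCAM, KRT8, KRT18, KRT19, CDH1 and VIL1 were abundant, with a summed level over the 10 of 10334 to 12638 TPM (a level scaled for transcript length) with TGFB1 and 7939 to 8297 TPM with DMSO. CDX1, a transcription factor of the intestinal epithelium, had 1 count over all 8 libraries, and LGALS4 had 51. Fibroblast markers summed to 49.3 to 65.4 TPM with TGFB1 and 47.1 to 60.1 TPM with DMSO, blood cell markers to 44.1 to 61.2 TPM with TGFB1 and 56.4 to 68.3 TPM with DMSO, and endothelial markers to 8.28 to 9.84 TPM with TGFB1 and 2.86 to 8.2 TPM with DMSO. FAP, COL3A1, PDPN, PTPRC, CD3E, HBB and KDR had 0 counts. In bulk RNA, fewer cells of a kind and less RNA of a gene per cell cannot be told apart.

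The RNA of SW620 cells differed widely between the TGFB1 and the DMSO libraries. With construct as a block, 5882 of the 13373 genes tested (44%) passed an adjusted p of 0.05, of which 2914 (21.8%) were higher and 2968 (22.2%) were lower with TGFB1. Most changes were small, and 562 genes (4.2%) were at least 2-fold higher whereas 238 (1.78%) were at least 2-fold lower. The median log2 fold change over all genes was 0.01. All 4 TGFB1 libraries lay above all 4 DMSO libraries for 2232 genes (16.7%) and below them for 2374 (17.8%). The counts of gene lists below are to be read against these shares.

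**Figure D1:**
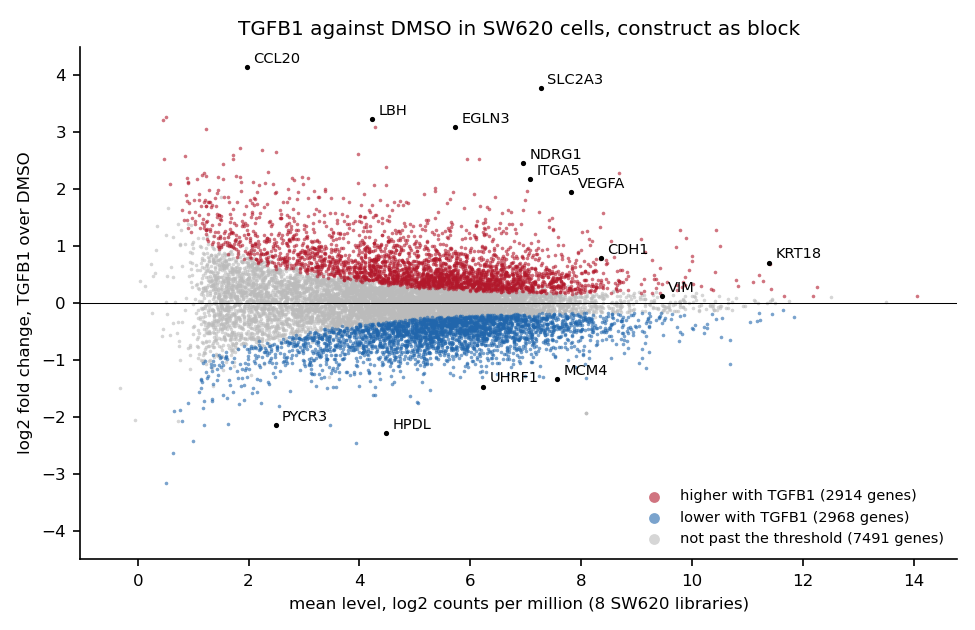
Log2 fold change of TGFB1 over DMSO (vertical axis) against mean level in log2 CPM (horizontal axis) for the 13373 genes tested in the 8 SW620 libraries. Red points are the 2914 genes past the threshold and higher with TGFB1, blue points the 2968 lower, grey points the others, and SLC2A3 (3.78) and EGLN3 (3.10) stand out among genes of high level.

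The largest increases among genes of at least moderate level were those of CCL20, SLC2A3, LBH, TNS1, EGLN3, SWINGN, FGF17, IL32, CACNA1C and UNC5B. SLC2A3, which encodes the glucose transporter GLUT3, was at 517 and 667 CPM in Tet2CD TGFB1 cells and 566 and 549 CPM in vector TGFB1 cells, against 40.7 and 32.1 CPM in Tet2CD DMSO cells and 43.2 and 52.5 CPM in vector DMSO cells. The log2 fold change was 3.78 (SE 0.12, adjusted p = 3.9e-12), and no TGFB1 library came near a DMSO library. CCL20, a chemokine that draws CCR6-bearing lymphocytes, was at 5.35 and 23.2 CPM in Tet2CD TGFB1 cells and 19.1 and 15 CPM in vector TGFB1 cells, against 0.48 to 1.02 CPM in the 4 DMSO libraries (log2 fold change 4.14, SE 0.47). Its lowest TGFB1 library still lay above every DMSO library, but the Tet2CD TGFB1 pair was far apart. LBH, a cofactor of transcription, showed the same spread, with 30.7 and 96 CPM in Tet2CD TGFB1 cells and 58.4 and 50.8 CPM in vector TGFB1 cells, against 4.59 to 8.32 CPM with DMSO. TNS1, which encodes tensin 1, a protein of integrin adhesions, averaged 57 ± 18 CPM with TGFB1 and 6.82 ± 2.1 CPM with DMSO (SD, n = 4 each). UNC5B, a netrin receptor, rose by 2.61, FGF17, a fibroblast growth factor, by 2.72, CACNA1C, a calcium channel subunit, by 2.65 and the cytokine gene IL32 by 2.70 on the log2 scale.

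Decreases were smaller. HPDL, a mitochondrial dioxygenase of coenzyme Q synthesis, was at 7.89 and 14.1 CPM in Tet2CD TGFB1 cells and 11.8 and 7.25 CPM in vector TGFB1 cells, against 57 and 50.7 CPM in Tet2CD DMSO cells and 46.1 and 43.7 CPM in vector DMSO cells (log2 fold change -2.28, SE 0.16, adjusted p = 2.5e-08). PYCR3, an enzyme of proline synthesis, had a log2 fold change of -2.15, and ADAMTS18, a secreted metalloprotease, one of -1.75. Lower levels were also read for ABCA1, which exports cholesterol (-2.14), FREM1, a basement membrane protein (-2.12), KLF9 (-1.85), SPA17 (-1.82) and MIR17HG, the host transcript of the miR-17-92 cluster (-1.78). These 5 were at 11.1 CPM or less on average with DMSO, so their folds are less precise, with SEs of 0.29 to 0.41. RGPD6 (-2.47) belongs to a family of near-identical copies and NEDD8-MDP1 (-2.43) is a readthrough of neighbouring genes, so how reads were shared out for both is uncertain.

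**Figure D2:**
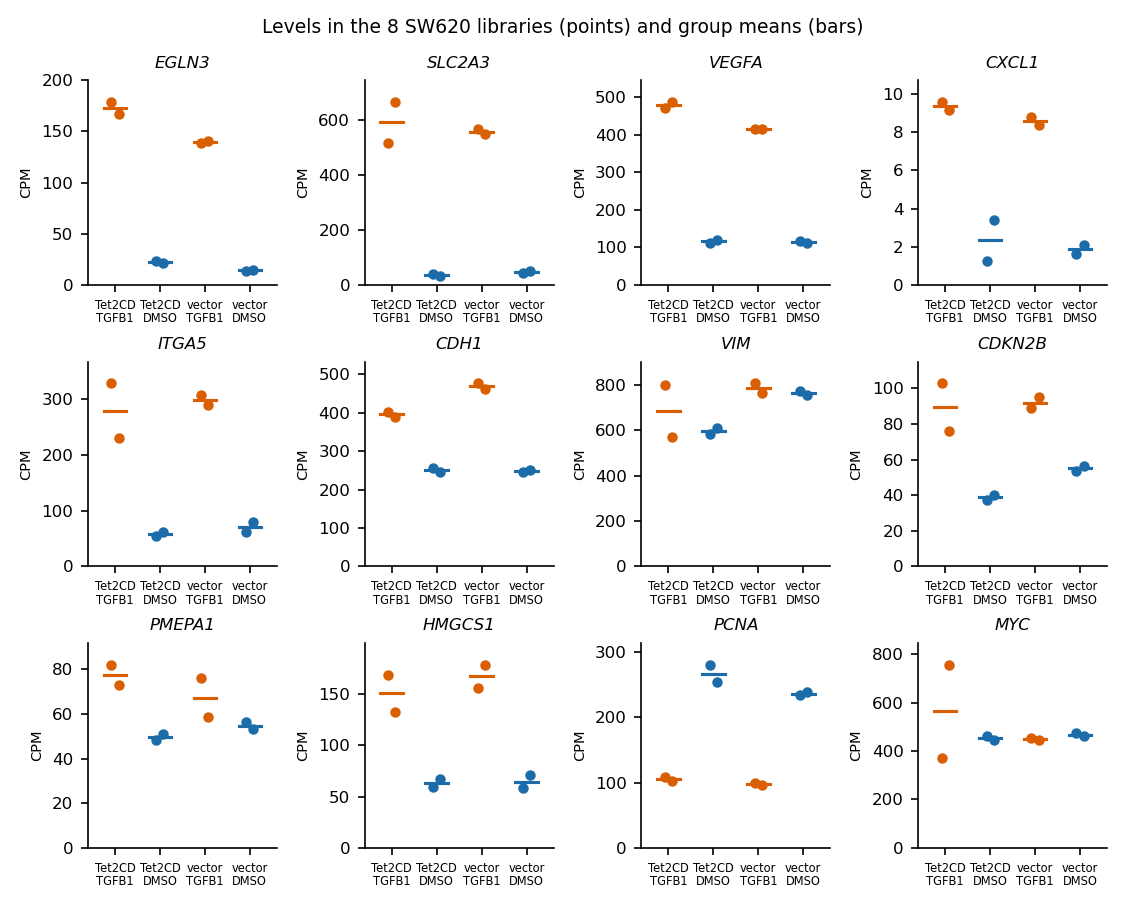
Levels of 12 genes in CPM (vertical axes, from 0) in the 8 SW620 libraries, with TGFB1 libraries in orange and DMSO libraries in blue, points for libraries and bars for the mean of 2. EGLN3, SLC2A3, VEGFA, CXCL1, ITGA5, CDH1, CDKN2B, PMEPA1 and HMGCS1 lay higher in every TGFB1 library and PCNA lower, whereas VIM and MYC overlapped between the groups.

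The TGF-beta pathway itself was measured from ligand to feedback. Among 10 tested genes of ligands and their activation, 4 were higher and 2 lower with TGFB1. The endogenous TGFB1 transcript was at 140 and 123 CPM in Tet2CD TGFB1 cells and 138 and 142 CPM in vector TGFB1 cells, against 82.9 and 74.1 CPM in Tet2CD DMSO cells and 94.1 and 84.7 CPM in vector DMSO cells (log2 fold change 0.70, SE 0.08, adjusted p = 3.7e-06). GDF15, a stress-induced member of the ligand family, averaged 120 ± 7.4 CPM with TGFB1 and 48.4 ± 9.3 CPM with DMSO, and INHBE, an inhibin subunit, 59 ± 14 CPM with TGFB1 and 22.8 ± 3.6 CPM with DMSO (SD, n = 4 each). LTBP3, which binds latent TGF-beta, rose by 0.71, whereas INHBB, an activin subunit, fell by 0.47 and THBS1, an activator of latent TGF-beta, fell by 0.65 on the log2 scale.

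Of 15 tested receptors and SMADs, 5 were higher and 1 was lower. The number higher was 2 without replicate 1 of vector DMSO, 3 without either Tet2CD DMSO library, vector TGFB1 replicate 1 or vector DMSO replicate 2, and 1 in a fit of all 24 libraries. SMAD3, one of the receptor-activated SMADs, was at 190 and 140 CPM in Tet2CD TGFB1 cells and 183 and 196 CPM in vector TGFB1 cells, against 111 and 113 CPM in Tet2CD DMSO cells and 116 and 129 CPM in vector DMSO cells (log2 fold change 0.60, SE 0.09). BMPR2, a type II receptor for bone morphogenetic proteins, rose by 0.69, and TGFBR3, TGFBR2 and SMAD2 rose by 0.30, 0.19 and 0.29 on the log2 scale, each with overlapping libraries. ACVR1B, an activin receptor, fell by 0.34. TGFBR1 had 17.9 ± 0.81 CPM with TGFB1 and 19.9 ± 1.4 CPM with DMSO and did not pass the test (adjusted p = 0.34). SMAD4, the common partner of the receptor-activated SMADs, had only 43 counts over the 8 libraries, with 0.6 to 2.02 TPM in TGFB1 libraries and 0.17 to 2.26 TPM in DMSO libraries, and was too low to be tested. By the same length-scaled measure SMAD2 was at 28.5 to 43.5 TPM with TGFB1 and 23.3 to 33 TPM with DMSO, and SMAD3 at 48.6 to 67.1 TPM with TGFB1 and 37.1 to 39.3 TPM with DMSO.

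Of 13 tested feedback inhibitors 5 were higher, 0 were lower and 8 did not pass the test, with a median log2 fold change of 0.33 against 0.01 over all genes. PMEPA1, which keeps SMADs from the receptor, was at 82 and 72.8 CPM in Tet2CD TGFB1 cells and 76 and 58.5 CPM in vector TGFB1 cells, against 48.3 and 51.2 CPM in Tet2CD DMSO cells and 56.3 and 53.4 CPM in vector DMSO cells (log2 fold change 0.47, SE 0.11, adjusted p = 0.0021). SKIL, which encodes the SMAD corepressor SnoN, was at 47.9 and 59.1 CPM in Tet2CD TGFB1 cells and 48.6 and 70.9 CPM in vector TGFB1 cells, against 32 and 32.4 CPM in Tet2CD DMSO cells and 42.9 and 38 CPM in vector DMSO cells (0.64, SE 0.12). For both genes the groups did not overlap, although the vector TGFB1 pair was spread. SMAD6, an inhibitory SMAD, rose by 0.58, the corepressor TGIF1 by 0.33 and the ubiquitin ligase SMURF2 by 0.35 on the log2 scale. SMAD7, the other inhibitory SMAD, was low and did not pass the test, with 3.94, 7.03, 4.78 and 4.31 CPM in the TGFB1 libraries and 4.83, 3.38, 1.28 and 3.02 CPM in the DMSO libraries (log2 fold change 0.67, SE 0.33, adjusted p = 0.11).

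Promoter sequences were taken from RefSeq on GRCh38.p14 as the 250 bases before each gene's start site, to show where the motif of the SMADs themselves can be found in genes of this feedback. The SMAD box, searched as CAGAC on both strands, was present in 6 of the 12 tested feedback inhibitors that have a promoter in the table. Its share was 37.8% of all 27305 promoters and 36% of those of tested genes. SKIL (chr3:170357465-170357714, plus strand) holds it once and TGIF1 (chr18:3411759-3412008, plus strand) at 2 positions, in capitals below, GTCTG being the reading on the other strand. PMEPA1, SMAD6 and SMURF2, which also rose, held none in this window. BAMBI, NEDD4L, SMAD7 and SMURF1 held it and did not pass the test. A match is a description and not a binding site.
SKIL: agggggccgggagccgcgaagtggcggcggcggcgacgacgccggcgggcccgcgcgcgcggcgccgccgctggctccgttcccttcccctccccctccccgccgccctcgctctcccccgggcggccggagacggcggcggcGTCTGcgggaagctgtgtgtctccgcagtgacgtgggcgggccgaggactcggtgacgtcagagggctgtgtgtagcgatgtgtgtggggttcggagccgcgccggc
TGIF1: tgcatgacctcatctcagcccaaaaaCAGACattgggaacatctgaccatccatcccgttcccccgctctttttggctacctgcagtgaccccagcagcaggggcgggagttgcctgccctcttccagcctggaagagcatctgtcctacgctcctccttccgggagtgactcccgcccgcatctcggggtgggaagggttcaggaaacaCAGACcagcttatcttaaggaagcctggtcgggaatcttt

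Known effector genes of TGF-beta were mostly higher: 21 of 36 tested rose and 2 fell, with a median log2 fold change of 0.59. VEGFA, the main angiogenic factor and also a hypoxia gene, was at 470 and 487 CPM in Tet2CD TGFB1 cells and 416 and 416 CPM in vector TGFB1 cells, against 111 and 121 CPM in Tet2CD DMSO cells and 116 and 112 CPM in vector DMSO cells (log2 fold change 1.96, SE 0.07, adjusted p = 1.9e-11). BHLHE40, a repressor of the clock and of differentiation genes, averaged 581 ± 13 CPM with TGFB1 and 196 ± 38 CPM with DMSO, and PDGFB, a platelet-derived growth factor, 33.6 ± 1.8 CPM with TGFB1 and 10.1 ± 0.95 CPM with DMSO (SD, n = 4 each). The cytokine gene IL11, at 4.64 ± 1.7 CPM with TGFB1 and 1.26 ± 0.46 CPM with DMSO, rose by 1.85 on the log2 scale.

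Other effectors did not follow. TNC, which encodes the matrix protein tenascin C, was at 112 and 87.2 CPM in Tet2CD TGFB1 cells and 100 and 87.2 CPM in vector TGFB1 cells, against 225 and 199 CPM in Tet2CD DMSO cells and 265 and 260 CPM in vector DMSO cells (log2 fold change -1.29, SE 0.10, adjusted p = 6.3e-08), and COL4A2, a chain of basement membrane collagen, fell by 0.40 on the log2 scale. TGFBI, named for its induction by TGF-beta, had 221, 229, 241 and 220 CPM with TGFB1 and 230, 231, 252 and 221 CPM with DMSO, and its log2 fold change was -0.04 (SE 0.07, adjusted p = 0.66). CCN2, a matricellular growth factor, was at 4.03 to 6.68 CPM with TGFB1 and 2.71 to 3.86 CPM with DMSO and did not pass the test (adjusted p = 0.13). Of 9 tested genes of the BMP branch 4 rose, among them the transcriptional inhibitor ID1 (0.76) and the ligand BMP4 (0.70), and 2 fell, the ligand BMP7 (-0.48) and the homeobox gene MSX1 (-0.47).

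Epithelial genes were not lower as a group. Of 29 tested, 13 rose and 1 fell with TGFB1. CDH1, which encodes E-cadherin, was at 403 and 390 CPM in Tet2CD TGFB1 cells and 476 and 461 CPM in vector TGFB1 cells, against 256 and 247 CPM in Tet2CD DMSO cells and 245 and 251 CPM in vector DMSO cells (log2 fold change 0.79, SE 0.07, adjusted p = 3.9e-07). Every TGFB1 library thus held more CDH1 RNA than every DMSO library. ELF3, an epithelial ETS factor, averaged 105 ± 4.4 CPM with TGFB1 and 33 ± 4.1 CPM with DMSO, and JUP, plakoglobin of the adherens junction and desmosome, 407 ± 40 CPM with TGFB1 and 237 ± 7.5 CPM with DMSO (SD, n = 4 each). The tight junction genes TJP3 (1.01), CGN (0.87), CLDN1 (0.86), CLDN4 (0.61) and OCLN (0.47) also rose, as did the keratin genes KRT18 (0.71) and KRT19 (0.58). EPCAM, an epithelial adhesion molecule, fell by 0.17 on the log2 scale (adjusted p = 0.034), and this call was lost when 1 of 3 libraries was left out.

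Mesenchymal genes gave 7 higher and 1 lower of 16 tested (3 lower without replicate 1 of Tet2CD TGFB1), and 15 of the 31 listed were too low to be tested, among them CDH2, which encodes N-cadherin, with 0 counts. VIM, which encodes the intermediate filament protein vimentin, was abundant in both groups, with 799 and 568 CPM in Tet2CD TGFB1 cells and 805 and 761 CPM in vector TGFB1 cells, against 581 and 611 CPM in Tet2CD DMSO cells and 772 and 757 CPM in vector DMSO cells. Its log2 fold change was 0.12 (SE 0.09, adjusted p = 0.29), and the groups overlapped. FN1, fibronectin, was at 38.9 ± 11 CPM with TGFB1 and 35.6 ± 9.8 CPM with DMSO (SD, n = 4 each, adjusted p = 0.47), and SPARC, a matricellular protein that the study names, had 3 counts in all. By the length-scaled measure FN1 was at 16.08 to 23.78 TPM with TGFB1 and 7.2 to 15.97 TPM with DMSO, without overlap. TPM values were not tested, and those of VIM overlapped. COL6A1 rose by 0.72 and COL1A1 by 0.83 on the log2 scale, the second from a level of 15.9 ± 3.3 CPM with TGFB1 and 8.91 ± 0.5 CPM with DMSO. By TPM the groups overlapped for COL1A1 (5.14 to 14.46 with TGFB1, 4.67 to 7.25 with DMSO) and not for COL6A1.

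EMT transcription factors were mostly low. SNAI1 had 12.7, 16.9, 11.8 and 11.6 CPM with TGFB1 and 15.8, 15.9, 14.7 and 19 CPM with DMSO (log2 fold change -0.32, adjusted p = 0.13), ZEB1 20.4 ± 6 CPM with TGFB1 and 16.4 ± 3.2 CPM with DMSO (adjusted p = 0.094), and TWIST1 had 0 counts. By the length-scaled measure, not tested, ZEB1 was at 8.03 to 15.87 TPM with TGFB1 and 6.33 to 7.36 TPM with DMSO, without overlap. SNAI1 overlapped by that measure. SNAI2 passed the test narrowly (1.10, SE 0.42, adjusted p = 0.045), but its libraries overlapped, since the Tet2CD TGFB1 pair stood at 1.13 and 9.49 CPM. ETS1 rose by 0.68. The splicing factors that keep epithelial isoforms moved apart, ESRP1 with 244 ± 28 CPM with TGFB1 and 169 ± 17 CPM with DMSO and ESRP2 with 91.5 ± 5.6 CPM with TGFB1 and 122 ± 6.3 CPM with DMSO (SD, n = 4 each, both past the threshold).

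Integrin subunits formed a further group, with 8 of 12 tested higher and 0 lower. ITGA5, the alpha chain of the fibronectin receptor, was at 328 and 230 CPM in Tet2CD TGFB1 cells and 307 and 289 CPM in vector TGFB1 cells, against 53.9 and 62.1 CPM in Tet2CD DMSO cells and 61.1 and 78.7 CPM in vector DMSO cells (log2 fold change 2.18, SE 0.11, adjusted p = 7.8e-10). ITGA1, part of a collagen receptor, rose by 1.55, ITGB6, whose protein activates latent TGF-beta, by 1.46, and ITGB4, the hemidesmosome subunit, by 1.15 on the log2 scale. ITGB1, the most shared beta chain, had a log2 fold change of -0.02 (adjusted p = 0.84). Of 21 tested genes of the actin cytoskeleton 9 rose, among them ACTN1 (0.35), and 3 fell, TAGLN2 most (-0.60), but with all 24 libraries in the fit 1 was higher and 1 lower.

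**Figure D3:**
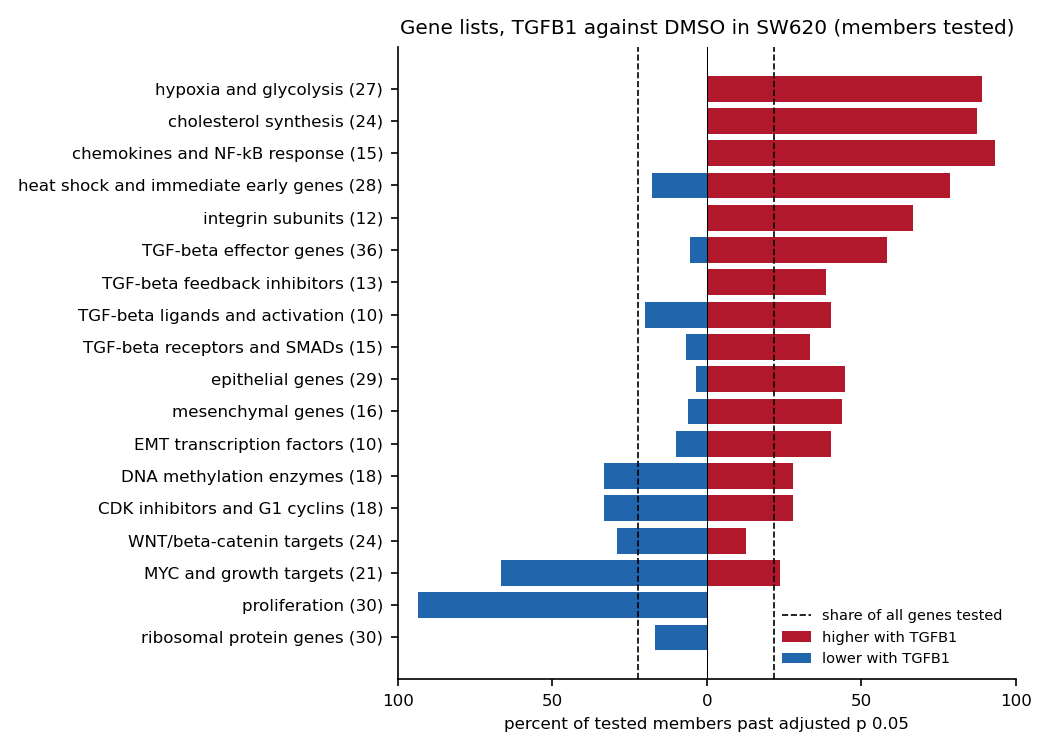
Percent of the tested members of 18 gene lists past an adjusted p of 0.05 in the 8 SW620 libraries (horizontal axis), higher with TGFB1 to the right in red and lower to the left in blue, with the number of members tested in brackets. Dashed lines mark the shares of all genes tested, 21.8% higher and 22.2% lower. To the right all lists but WNT/beta-catenin targets, proliferation and ribosomal protein genes exceed the line, with hypoxia, cholesterol and chemokine genes furthest. To the left proliferation genes exceed it most. MYC and growth targets, CDK inhibitors and G1 cyclins, DNA methylation enzymes and WNT/beta-catenin targets also exceed it there.

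Genes of hypoxia and glycolysis rose together. Of 27 tested, 24 were higher and 0 lower, with a median log2 fold change of 1.20, and in 24 of them the TGFB1 libraries all lay above the DMSO libraries. EGLN3, an oxygen-sensing prolyl hydroxylase that is itself induced by HIF, was at 179 and 167 CPM in Tet2CD TGFB1 cells and 139 and 141 CPM in vector TGFB1 cells, against 23.1 and 21 CPM in Tet2CD DMSO cells and 14.1 and 14.8 CPM in vector DMSO cells (log2 fold change 3.10, SE 0.10, adjusted p = 3.9e-12). PFKFB4, an enzyme that sets the level of an activator of glycolysis, averaged 172 ± 33 CPM with TGFB1 and 30 ± 3.1 CPM with DMSO, and HK2, hexokinase, 298 ± 24 CPM with TGFB1 and 105 ± 13 CPM with DMSO (SD, n = 4 each). NDRG1, a stress gene, was at 380 and 227 CPM in Tet2CD TGFB1 cells and 283 and 283 CPM in vector TGFB1 cells, against 49.3 to 56 CPM in the DMSO libraries. The glucose transporter SLC2A1 (1.29), the collagen hydroxylase P4HA1 (1.47) and the pyruvate dehydrogenase kinase PDK1 (1.20) also rose. Enzymes of lower glycolysis moved less, with LDHA at 0.49, PKM at 0.36, ENO1 at 0.25 and GAPDH at 0.11 (adjusted p = 0.093) on the log2 scale.

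The core of the hypoxia response element, searched as ACGTG on both strands, was chosen after the values of this list were seen. It was present in the 250 bases before the start site of 11 of the 24 tested members with a promoter in the table (45.8%), beside 18.7% of all promoters and 23.5% of those of tested genes. Since the list was made up of genes of hypoxia and glycolysis, this share describes the list and not the response to TGFB1. LDHA (chr11:18394313-18394562, plus strand) and ANKRD37 (chr4:185396591-185396840, plus strand), a small ankyrin protein whose RNA rose by 1.27 on the log2 scale, are shown because they rose and hold it at several positions, in capitals, where CACGT is the other strand's reading and a run of CACGTG holds 2 overlapping matches. EGLN3, SLC2A1 and PFKFB4 held none in this window, from which nothing follows about HIF.
LDHA: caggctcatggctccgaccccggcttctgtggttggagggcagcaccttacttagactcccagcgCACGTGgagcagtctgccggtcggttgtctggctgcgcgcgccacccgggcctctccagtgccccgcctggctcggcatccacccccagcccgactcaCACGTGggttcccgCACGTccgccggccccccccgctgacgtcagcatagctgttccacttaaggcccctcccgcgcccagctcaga
ANKRD37: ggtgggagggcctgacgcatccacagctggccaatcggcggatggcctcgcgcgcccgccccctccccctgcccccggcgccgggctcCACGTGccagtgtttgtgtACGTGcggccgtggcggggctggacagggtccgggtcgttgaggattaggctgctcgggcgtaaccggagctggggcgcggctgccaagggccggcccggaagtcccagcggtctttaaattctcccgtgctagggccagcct

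Chemokine and NF-kB response genes were higher in 14 of 15 tested and lower in 0, with a median log2 fold change of 1.03. CXCL1, a neutrophil chemokine, was at 9.58 and 9.14 CPM in Tet2CD TGFB1 cells and 8.81 and 8.38 CPM in vector TGFB1 cells, against 1.27 and 3.38 CPM in Tet2CD DMSO cells and 1.6 and 2.11 CPM in vector DMSO cells (log2 fold change 2.07, SE 0.29, adjusted p = 2.7e-05). CXCL8, interleukin 8, was at 15.2 and 19.7 CPM in Tet2CD TGFB1 cells and 39.5 and 36.5 CPM in vector TGFB1 cells, against 6.36 and 7.73 CPM in Tet2CD DMSO cells and 20.5 and 15.4 CPM in vector DMSO cells. Within each construct its TGFB1 libraries lay above its DMSO libraries, although the level itself was lower in Tet2CD cells (log2 fold change 1.16, SE 0.15). NFKB2, the p100 precursor of the noncanonical pathway, averaged 72.2 ± 5.4 CPM with TGFB1 and 30.1 ± 2.4 CPM with DMSO, and TNFAIP3, the deubiquitinase A20 that ends the response, 48.4 ± 4.7 CPM with TGFB1 and 18.5 ± 2.1 CPM with DMSO (SD, n = 4 each). The NF-kB subunit gene NFKB1 was the member that did not pass, at -0.04 (adjusted p = 0.84).

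Immediate early and heat shock genes moved in both directions, with 22 of 28 higher and 5 lower. FOSL2, a subunit of the AP-1 factor, was at 123 and 146 CPM in Tet2CD TGFB1 cells and 129 and 123 CPM in vector TGFB1 cells, against 36.9 and 34.1 CPM in Tet2CD DMSO cells and 35.8 and 30.8 CPM in vector DMSO cells (log2 fold change 1.92, SE 0.09, adjusted p = 5e-10). FOS rose by 1.53, JUNB by 0.93 and IER3 by 1.09, whereas FOSL1 fell by 0.41 on the log2 scale. All but 1 of the 5 that fell were chaperones, and HSPB1 (-0.87) and HSP90AA1 (-0.45) were among them. Of 22 tested genes of the integrated stress response 12 rose and 3 fell, but this count rests on the discordant Tet2CD TGFB1 pair. Without replicate 1 of that pair 18 rose (median log2 fold change 0.56), and without replicate 2 only 9 (median 0.21). DDIT4, an inhibitor of mTORC1 that hypoxia also induces, was at 784 to 1004 CPM with TGFB1 and 166 to 222 CPM with DMSO (log2 fold change 2.28, SE 0.09), and TRIB3 rose by 1.25, whereas PHGDH and SLC7A5, of serine synthesis and amino acid uptake, fell by 0.46 and 0.39.

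The AP-1 site, searched as TGACTCA on both strands, was in the 250 bases before the start site of 4.16% of all promoters. Only 76.8% of the genes that rose have a promoter in the table, so its share among them was not read. Promoters that hold it are shown for genes that rose and encode secreted or surface proteins. EMP1 (chr12:13196476-13196725, plus strand), an epithelial membrane protein, rose by 1.94 on the log2 scale. The others are the urokinase receptor gene PLAUR (chr19:43670170-43670419, minus strand), which rose by 1.22 on the log2 scale, and CXCL8 (chr4:73740319-73740568, plus strand). They were chosen after their values were seen, the site is in capitals, and TGAGTCA is the reading on the other strand.
EMP1: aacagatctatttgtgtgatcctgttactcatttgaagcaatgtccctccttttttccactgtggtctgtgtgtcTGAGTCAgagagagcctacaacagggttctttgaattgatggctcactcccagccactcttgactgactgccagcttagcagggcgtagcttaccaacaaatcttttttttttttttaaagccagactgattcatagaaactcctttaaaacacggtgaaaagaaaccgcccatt
PLAUR: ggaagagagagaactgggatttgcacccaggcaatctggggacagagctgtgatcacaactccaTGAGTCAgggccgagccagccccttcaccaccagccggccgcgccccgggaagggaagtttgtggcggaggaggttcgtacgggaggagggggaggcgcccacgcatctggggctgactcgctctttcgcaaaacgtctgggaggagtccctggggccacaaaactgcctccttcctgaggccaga
CXCL8: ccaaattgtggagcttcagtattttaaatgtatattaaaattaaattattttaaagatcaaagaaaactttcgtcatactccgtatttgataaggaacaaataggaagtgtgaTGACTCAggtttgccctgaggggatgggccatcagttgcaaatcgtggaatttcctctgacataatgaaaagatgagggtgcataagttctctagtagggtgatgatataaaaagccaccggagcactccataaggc

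Cholesterol synthesis and uptake genes were higher in 21 of 24 tested and lower in 0, with a median log2 fold change of 0.81. HMGCS1, the first committed enzyme of the mevalonate pathway, was at 169 and 133 CPM in Tet2CD TGFB1 cells and 156 and 179 CPM in vector TGFB1 cells, against 59 and 66.9 CPM in Tet2CD DMSO cells and 58.2 and 70.9 CPM in vector DMSO cells (log2 fold change 1.32, SE 0.10, adjusted p = 4.5e-08). MSMO1 (1.91), INSIG1 (1.70), SQLE (1.38) and CYP51A1 (1.27) also rose, and PMVK (-0.15), TM7SF2 (-0.10) and NSDHL (0.12) did not pass the test. Fatty acid genes were divided, with 10 of 25 higher and 5 lower, or 3 lower without replicate 1 of Tet2CD DMSO or replicate 2 of vector TGFB1. ACSL1, which activates fatty acids, rose by 1.75 and PPARG by 1.39, whereas FABP5, a fatty acid carrier, fell by 1.07 and FASN, fatty acid synthase, by 0.32 on the log2 scale.

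Genes of DNA replication and mitosis were lower. Of 30 proliferation genes 28 fell and 0 rose, with a median log2 fold change of -0.78. PCNA, the sliding clamp of DNA polymerases, was at 108 and 103 CPM in Tet2CD TGFB1 cells and 98.6 and 96.3 CPM in vector TGFB1 cells, against 280 and 253 CPM in Tet2CD DMSO cells and 233 and 238 CPM in vector DMSO cells (log2 fold change -1.30, SE 0.07, adjusted p = 8e-10). MCM4, a subunit of the replicative helicase, averaged 119 ± 5.9 CPM with TGFB1 and 302 ± 8.2 CPM with DMSO (SD, n = 4 each), and the other MCM genes fell by 0.77 to 1.20 on the log2 scale. MKI67 fell less, by 0.41. The 2 that did not pass were RRM2 (-0.21) and CDC6 (-0.09), and CDC6 was at 26.5 and 65.8 CPM in the Tet2CD TGFB1 pair.

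CDK inhibitors and G1 genes were divided, with 5 of 18 higher and 6 lower. CDKN2B, which encodes p15 and mediates arrest by TGF-beta in epithelial cells, was at 103 and 76.3 CPM in Tet2CD TGFB1 cells and 88.8 and 95.4 CPM in vector TGFB1 cells, against 37.4 and 40.1 CPM in Tet2CD DMSO cells and 53.4 and 56.7 CPM in vector DMSO cells (log2 fold change 0.97, SE 0.11, adjusted p = 5.9e-06). CDKN1A, which encodes p21, averaged 9.79 ± 1.9 CPM with TGFB1 and 3.83 ± 0.36 CPM with DMSO, and CDKN1B, which encodes p27, 58 ± 6.8 CPM with TGFB1 and 31.7 ± 3 CPM with DMSO (SD, n = 4 each). The phosphatase gene CDC25A fell by 1.19, CDK4 by 0.87 and CCND1 by 0.57 on the log2 scale.

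Growth genes of the MYC programme fell in 14 of 21 and rose in 5, with a median log2 fold change of -0.66. NOP56, of the nucleolar ribonucleoprotein that methylates ribosomal RNA, averaged 174 ± 41 CPM with TGFB1 and 428 ± 19 CPM with DMSO, and RRS1, of ribosome assembly, 10.8 ± 2.3 CPM with TGFB1 and 33 ± 4.9 CPM with DMSO (SD, n = 4 each). The 5 that rose included the MYC antagonists MXD1 (1.48), MXI1 (1.25) and MNT (0.40), as well as MAX (0.59) and LDHA. MYC itself was at 373 and 756 CPM in Tet2CD TGFB1 cells and 455 and 447 CPM in vector TGFB1 cells, against 461 and 444 CPM in Tet2CD DMSO cells and 474 and 462 CPM in vector DMSO cells. Its log2 fold change was 0.13 (SE 0.15, adjusted p = 0.49), and the 2 Tet2CD TGFB1 libraries lay on opposite sides of the rest. Of 30 ribosomal protein genes 5 fell and 0 rose, the largest change being that of RPL35 (-0.35). The number lower was 3 without replicate 1 of vector DMSO and 8 without replicate 2 of Tet2CD TGFB1.

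DNA methylation enzymes gave 5 higher and 6 lower of 18 tested. UHRF1, which recruits the maintenance methyltransferase to replicated DNA, was at 51 and 56.6 CPM in Tet2CD TGFB1 cells and 37.7 and 38.1 CPM in vector TGFB1 cells, against 139 and 138 CPM in Tet2CD DMSO cells and 110 and 116 CPM in vector DMSO cells (log2 fold change -1.47, SE 0.08, adjusted p = 2.8e-09). DNMT1, that methyltransferase, averaged 159 ± 12 CPM with TGFB1 and 240 ± 13 CPM with DMSO, and the de novo methyltransferase gene DNMT3B 16.1 ± 3.9 CPM with TGFB1 and 32.4 ± 3.4 CPM with DMSO (SD, n = 4 each). TET1 rose by 0.56, IDH1 by 0.55 and GADD45A by 0.84 on the log2 scale, and TET3 did not pass the test (0.11, adjusted p = 0.42).

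WNT/beta-catenin targets gave 3 higher and 7 lower of 24 tested, and no common direction. NOTUM, a secreted WNT inhibitor, was at 441 and 372 CPM in Tet2CD TGFB1 cells and 371 and 390 CPM in vector TGFB1 cells, against 740 and 719 CPM in Tet2CD DMSO cells and 818 and 799 CPM in vector DMSO cells (log2 fold change -0.96, SE 0.07). ASCL2, a stem cell factor (-0.81), and EPHB2 (-0.58) also fell, whereas ZNRF3 rose by 0.33, and AXIN2 (0.09, adjusted p = 0.36) and LGR5 (-0.16, adjusted p = 0.33) did not pass. CTNNB1, which encodes beta-catenin, was at 412, 430, 455 and 417 CPM with TGFB1 and 480, 488, 458 and 492 CPM with DMSO (-0.16, adjusted p = 0.054). Of 28 WNT pathway components 9 rose and 1 fell, with WNT10A at 1.65, WNT2B at 1.56 and FZD6 at -0.64. Intestinal differentiation genes gave 6 higher and 1 lower of 14 tested, with CDH17 at 1.78, KLF5 at 1.27 and the Notch target HES1 at -0.85, and interferon-stimulated genes 6 higher and 4 lower of 19 (2 lower without replicate 1 of vector TGFB1), with IRF7 at 1.05 and MX1 at -0.61. CDH17 was low, with 75 counts in all, and by TPM its groups overlapped (1.54 to 2.98 with TGFB1, 0.84 to 1.59 with DMSO). RORA, a nuclear receptor that the study names, was at 16.3 and 15.8 CPM in Tet2CD TGFB1 cells and 18.4 and 18.1 CPM in vector TGFB1 cells, against 3.56 and 5.55 CPM in Tet2CD DMSO cells and 4.16 and 1.21 CPM in vector DMSO cells (log2 fold change 2.22, SE 0.26, adjusted p = 5.5e-06).

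Few genes of other cell types could be tested. LYZ (0.87), VWF (1.15) and COL1A1 (0.83) rose and CD4 fell (-0.49). By TPM, not tested, the groups overlapped for LYZ, COL1A1 and CD4 and not for VWF. CD4, the highest of these called genes, averaged 13.3 TPM with TGFB1 and 17 TPM with DMSO. Of the markers that did not pass, CD68 averaged 27.8 TPM with TGFB1 and 37.8 TPM with DMSO (adjusted p = 0.06) and FBLN1 28.5 TPM with TGFB1 and 30.3 TPM with DMSO (adjusted p = 0.088), and the part of such RNA in the other results was not tested.

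The response was then taken apart by construct, to see whether Tet2CD altered it. In Tet2CD cells 3478 of 13373 genes (26%) passed the test, 1777 higher and 1701 lower, and in vector cells 3956 (29.6%), 1832 higher and 2124 lower. Both sets rest on 2 libraries against 2, and leaving out 1 of the 8 gave 1596 to 4323 genes in Tet2CD cells and 2078 to 5234 in vector cells. Called in both with the same direction were 2572 genes, which is 74% of those called in Tet2CD cells and 65% of those called in vector cells, and 2 were called in opposite directions. Across the 13373 genes, which are not independent, the log2 fold changes in Tet2CD and vector cells had a Pearson correlation of 0.687 and a Spearman correlation of 0.764. Hypoxia and glycolysis genes were higher in 26 of 27 in Tet2CD cells and 19 of 27 in vector cells, cholesterol genes in 21 of 24 in Tet2CD cells and 20 of 24 in vector cells, and proliferation genes were lower in 27 of 30 in Tet2CD cells and 26 of 30 in vector cells.

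The difference itself, the effect in Tet2CD cells minus that in vector cells, passed the test for 1 gene (0.00748%), while 679 genes had an unadjusted p under 0.05 by the same edgeR test and DESeq2 called 2. Without replicate 2 of Tet2CD TGFB1 it passed for 70 genes, and without replicate 1 for 6. That gene, ENSG00000265257 at chr18:9102736-9254346, had 0 counts in both Tet2CD TGFB1 libraries and 126 and 54 counts in Tet2CD DMSO, against 83 and 100 counts in vector TGFB1 and 0 in both vector DMSO libraries. It runs across NDUFV2 and ANKRD12 on the same strand, so reads may have been shared out between them differently from library to library, and its value is uncertain. NDUFV2, a subunit of respiratory complex I, had log2 fold changes of 0.30 in Tet2CD cells and -0.68 in vector cells. TET2 rose by 0.94 (SE 0.17, adjusted p = 0.0015) in vector cells, which carry no transgene, and had a log2 fold change of -0.11 (adjusted p = 0.48) in Tet2CD cells. By the levels given above, most TET2 reads of Tet2CD cells came with the construct. A rise of the endogenous gene as large as that in vector cells could not be seen against them, so the 2 values do not compare that gene. The interval of the TET2 difference was -1.48 to -0.61, but it did not pass adjustment over all genes (adjusted p = 0.69). Genes for which the difference missed the threshold are not shown to respond alike, because 2 libraries a group leave wide intervals.

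**Figure D4:**
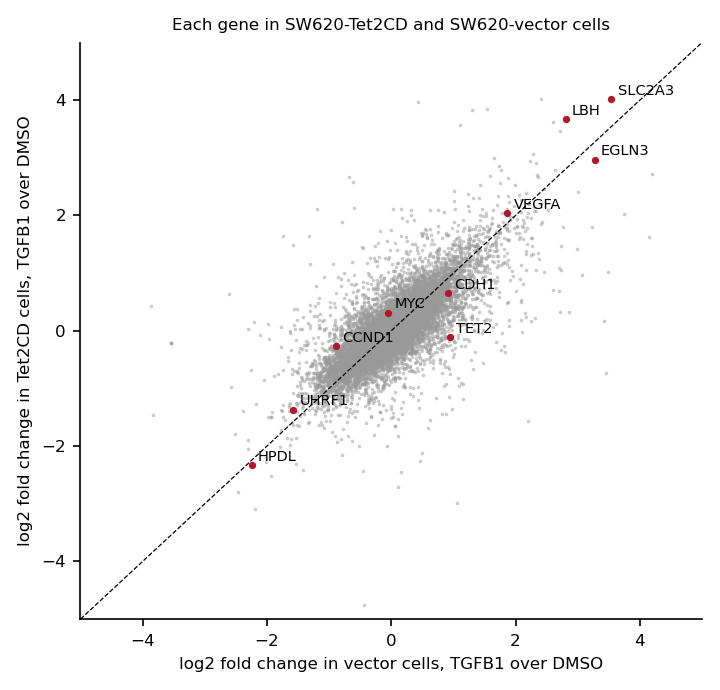
Log2 fold change of TGFB1 over DMSO in SW620-Tet2CD cells (vertical axis) against that in SW620-vector cells (horizontal axis), 1 point a gene, with equal changes on the dashed line and 10 of 13373 genes outside the range. The points follow the line (Spearman 0.764), and TET2 lies off it with 0.94 in vector cells and -0.11 in Tet2CD cells, where most of its reads came with the construct.

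The SW620 libraries with RepSox, a 1 µM inhibitor of the receptor kinase TGFBR1, share their DMSO controls with the TGFB1 libraries and are given as levels only, scaled together over 12 libraries. EGLN3 averaged 154 ± 19.4 CPM with TGFB1, 15.9 ± 3.54 CPM with RepSox and 18.1 ± 4.46 CPM with DMSO (SD, n = 4 each). RORA averaged 17 ± 1.27 CPM with TGFB1, 3.71 ± 0.385 CPM with RepSox and 3.58 ± 1.79 CPM with DMSO. The RepSox libraries of both genes thus lay near the DMSO libraries. PMEPA1 was at 71.4 ± 9.83 CPM with TGFB1, 108 ± 13.1 CPM with RepSox and 51.8 ± 3.37 CPM with DMSO, and TGFBI at 225 ± 9.75 CPM with TGFB1, 385 ± 37.2 CPM with RepSox and 231 ± 13.2 CPM with DMSO. For both of these targets the inhibitor libraries held the highest levels. CCN2 had 4.76 ± 1.24 CPM with TGFB1, 0.977 ± 0.517 CPM with RepSox and 3.19 ± 0.552 CPM with DMSO, and PCNA 100 ± 5.08 CPM with TGFB1, 343 ± 46.8 CPM with RepSox and 249 ± 20.6 CPM with DMSO.

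The effect of TGFB1 was last set against that in SW480 cells, in a fit of the 16 TGFB1 and DMSO libraries of both lines. The SW480 Tet2CD libraries of replicate 1 stand apart from the rest, with 10.9% and 12.7% of counts in ribosomal protein genes against 6.18% to 9.69% in the other 14, so values are also given without these 2. That fit keeps only 1 TGFB1 and 1 DMSO library of SW480 Tet2CD cells. This unreplicated pair weighs as much in the SW480 effect as the SW480 vector libraries. The effect differed between the lines for 294 of 14983 genes (1.96%), 164 more positive and 130 more negative in SW620, and for 1417 of 15500 (9.14%) without the 2 libraries, of which 292 were among the 294. Leaving out 1 library at a time gave 83 genes (without replicate 1 of SW620 Tet2CD DMSO) to 1320 (without replicate 2 of SW480 Tet2CD TGFB1). TGFB1 against DMSO called 2647 genes (17.7%) in SW620 and 155 (1.03%) in SW480 in the 16-library fit, and 5663 (36.5%) in SW620 and 1322 (8.53%) in SW480 without the 2.

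SLC2A3 differed most clearly, by 3.41 (SE 0.20, adjusted p = 3.4e-06), with 575 ± 65 CPM with TGFB1 and 42.1 ± 8.4 CPM with DMSO in SW620 by the 8-library scaling, and an effect of 0.36 in SW480. EGLN3 (2.17), IGFBP3 (1.91), PFKFB4 (1.77) and GDF15 (1.57) also had a more positive effect in SW620. Without the 2 libraries the 5 differences were 3.44, 2.25, 1.94, 1.78 and 1.55. With DMSO, and with the 16 libraries scaled together, SLC2A3 was at 1646 CPM in SW480 and 41.2 CPM in SW620. With TGFB1 it was at 2064 CPM in SW480 and 560 CPM in SW620, so SW480 held more in both conditions. IGFBP3 was at 250 CPM in SW480 and 5.01 CPM in SW620 with DMSO. EGLN3 was at 54.8 CPM in SW480 and 17.9 CPM in SW620 with DMSO, and PFKFB4 at 53.2 and 29.4 CPM. For GDF15 these levels were 46.7 CPM in SW480 and 47.4 CPM in SW620. CADM1, a cell adhesion molecule, fell in SW620, where it averaged 2.03 CPM with TGFB1 and 5.15 CPM with DMSO, and rose by 1.09 in SW480 (difference -2.43, SE 0.31, adjusted p = 0.0037). CD24 (-1.59), RRS1 (-1.57), MYBBP1A (-1.33) and GEMIN4 (-1.21) had a more negative effect in SW620. CD24 was low in SW480, at 5.33 CPM with DMSO against 193 CPM in SW620. For RRS1 these levels were 30.1 and 32.3 CPM, for MYBBP1A 111 and 138 CPM and for GEMIN4 99.3 and 108 CPM. Of the hypoxia and glycolysis list 7 of 28 tested differed, all more positive in SW620, and of the proliferation list 6 of 30, all more negative.

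For the SMAD targets TGFBI and PMEPA1 the difference was negative, but not for such genes as a group. Without the 2 libraries SKIL differed by 0.04 and SMAD7 by 0.52. With all 16, 4 of 43 tested effector genes were more positive in SW620 and 1 more negative, with a median difference of 0.31. Over all genes these shares were 1.09% and 0.868%. Of 15 tested feedback inhibitors 0 differed, with a median of 0.06. TGFBI rose by 0.62 in SW480, and the difference, SW620 minus SW480, was -0.67 (SE 0.14, adjusted p = 0.027), or -0.66 without the 2 libraries. PMEPA1 had 220 ± 44 CPM with TGFB1 and 105 ± 19 CPM with DMSO in SW480 (SD, n = 4 each), an effect of 1.07. Its difference of -0.61 missed the threshold with all 16 libraries (adjusted p = 0.085) and was -0.59 without the 2. CDH1 had an effect of -0.14 in SW480 (adjusted p = 0.8), and the difference of 0.92 did not pass with all 16 libraries and was 0.82 without the 2.

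**Figure D5:**
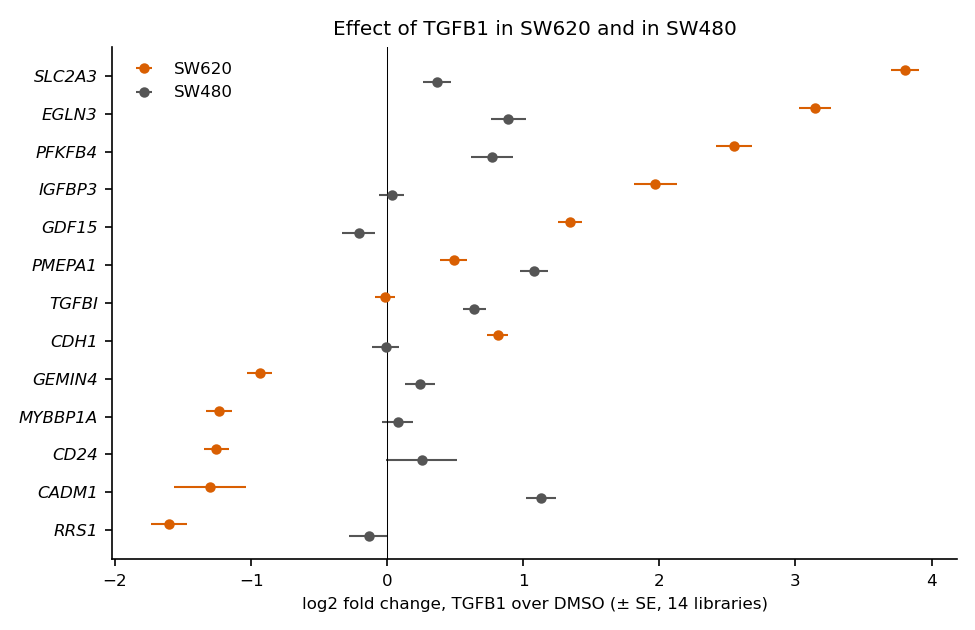
Log2 fold change of TGFB1 over DMSO with its SE (horizontal axis) for 13 genes in SW620 (orange) and SW480 (grey), from the fit without the 2 SW480 Tet2CD libraries of replicate 1. That fit keeps 1 TGFB1 and 1 DMSO library of SW480 Tet2CD cells. SLC2A3 lies at 3.80 in SW620 and 0.37 in SW480, and TGFBI at -0.02 in SW620 and 0.64 in SW480.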

How the data were processed

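RNA-seq libraries of SW620 and SW480 cells were quantified by the study's authors, who per the labels used Bowtie and RSEM. The processing notes name the mouse build mm10, but the gene identifiers are human Ensembl ones, and positions come from GENCODE 29 on GRCh38. The authors deposited expected counts, RSEM's estimated reads per gene, beside TPM values scaled for length and library, and FPKM values that were not used. The methods of the study describe quality control with FASTQC, adapter and quality trimming with a minimum read length in TRIMMOMATIC, an Ensembl transcriptome index and a normalization for GC content. The strand setting was not given in the sources used here. It is also not stated whether the GC step bears on the deposited counts. Of 33382 genes listed, 32777 had a symbol, and 0 were mitochondrial.

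The expected counts, rounded to integers, were fitted with edgeR 4.0.16 in R 4.3.3 (filterByExpr, TMM scaling, quasi-likelihood F test, construct as a block, 8 libraries, 5 residual degrees of freedom). A fit with 4 group means gave the constructs apart and their difference, and one of 16 libraries the difference from SW480. Benjamini-Hochberg adjusted p under 0.05 was called, and SE is the log2 fold change over the square root of F. Genes were named from 12 chosen for the pathway and the study, the 10 largest changes in each direction at a mean log2 CPM of at least 1, leading members of 30 gene lists and of each comparison, and other list members given as values. Members and lists were chosen with earlier results of these data known. The fits were tested on simulated data. Alternatives were RLE scaling, no filter, DESeq2 1.42.0, other sets of libraries, a GC offset, no construct term, a replicate block and each library left out. Total counts of 2817697 to 4410567 per library limit the precision of genes at a few counts. Some genes are not reported here.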

Additional observations from a re-analysis of the deposited data

Results flagged for a closer look

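The effect of TGFB1 differed between Tet2CD and vector cells for ENSG00000265257 (log2 difference -18.68), a gene with 0 counts in some libraries that overlaps NDUFV2 and ANKRD12, so the fitted value depends on the prior count and is no measure of size.

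The effect in SW620 minus that in SW480 passed the test for SLC2A3 (3.41), EGLN3 (2.17), IGFBP3 (1.91), PFKFB4 (1.77) and GDF15 (1.57), each more positive in SW620. It also passed for CADM1 (-2.43), CD24 (-1.59), RRS1 (-1.57), MYBBP1A (-1.33) and GEMIN4 (-1.21), each more negative in SW620. These 10 were the genes of smallest p in each direction.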

How the results depend on the processing

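The main count of 5882 genes fell to 2383 when all 24 libraries shared one estimate of spread, and leaving out 1 library gave 5048 to 6129. In that 24-library fit 759 genes passed in vector cells and 733 in Tet2CD cells, and DESeq2 gave 2423 in vector cells and 2101 in Tet2CD cells. Leaving out 1 library gave 2078 to 5234 in vector cells and 1596 to 4323 in Tet2CD cells. The difference between constructs passed for 55 genes with no filter, 2 with DESeq2, 0 with 12, 21 or 24 libraries, and 1 to 70 with 1 library left out. The difference from SW480 passed for 552 genes with no filter, 498 with DESeq2, 1417 with 14 libraries, and 83 to 1320 with 1 library left out. In the 24-library fit 1 cytoskeleton gene, 1 of the receptors and SMADs, 1 EMT transcription factor, 2 feedback inhibitors, 7 epithelial, 4 mesenchymal, 5 fatty acid and 9 heat shock and immediate early genes were past the threshold as higher, against 19 of the hypoxia and glycolysis list. The cause was not tested.

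Of 124 genes named and called, 98 kept their call in every alternative and 0 reversed, while 25 named genes lost theirs in the 24-library fit. Among uncalled genes, ENSG00000265257 was at 0.0045 with DESeq2, 0.023 with the replicate block and 0.013 with block and GC offset, and TET2 at -0.10 without the construct term. With 1 library left out, VIM ranged between -0.013 and 0.18, NFKB1 ranged between -0.17 and 0.061, BAMBI ranged between -0.13 and 0.012, ITGB1 ranged between -0.045 and 0.0065 and ENSG00000265257 ranged between -0.90 and 0.98. The labels give no replicate numbers. A replicate block by library set gave 5925 genes in the main comparison and left 147 of 148 genes on their side, and correlations of replicate differences were -0.039 to 0.004. Scaling by total counts, chosen after seeing the data, moved 0 calls among the 148 named genes and gave 5863 genes in the main comparison, 3901 in vector cells, 3463 in Tet2CD cells and 252 for the difference from SW480. SMAD4, SPARC and other genes at a few counts could not be tested at this depth.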
